A study of Mus musculus with 4 samples.

Results

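Imprinted genes are read mainly from one parental copy, and most of them lie in domains that share a control region. The 42 mouse imprinted genes described here were taken as a list of symbols from known imprinted domains, with no threshold on their values, and were matched to the deposited tables through their Ensembl IDs. Of the 42 genes, 38 had a row among the 27597 genes of the tables, and Rian, Mirg, Kcnq1ot1 and Snrpn were not analysed here. Of the 38, 24 reached 1 RPKM (reads per kilobase of gene per mega-read) in some group, and 17 were so in every group. On exon length 32 reached it.

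RNA was sequenced from fibroblasts of the skin of mice of age D13.5 (embryonic) of the strain OGXICR, taken after the epidermis had been removed, and carrying a doxycycline-inducible lentiviral system. In the empty vector group the virus carried no factor. The SKM group received SOX2, KLF4 and c-MYC, the OSKM group received OCT4 in addition to those, and the G3SKM group received GATA3 in addition to SOX2, KLF4 and c-MYC. These factor sets are used to reprogram somatic cells to pluripotency. The sources used here do not give the time of collection, the share of infected cells or the number of embryos. Each group has a single column that the labels call 2 replicates together, which leaves no replicate spread to judge a difference by, and no test was made. A difference in bulk RNA can come from fewer cells of a type or from less RNA per cell, and these cannot be told apart.

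In the controls of imprinting, methylation of CpG sites laid down in the egg or sperm marks one copy of a control region, and zinc finger proteins such as ZFP57 keep the mark after fertilization. H19 and Igf2 share enhancers, the Kcnq1 domain is silenced on the paternal copy by the long RNA Kcnq1ot1, and the Dlk1 to Dio3 domain pairs paternal protein-coding genes with maternal RNAs. Many of the products set fetal and placental growth, and loss of Meg3 and its neighbouring RNAs is a known defect of some mouse pluripotent lines. The files do not separate the parental copies, so a level here is the sum over both.

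The promoters of 5 genes that carry the results are printed from the RefSeq table of build GRCm38.p6, 5′ to 3′ on the gene's strand. Each window runs from 250 bases before to 50 after the annotated start. Each CG is in capitals because CpG sites are where DNA is methylated. Methylation was not measured here, and these windows need not be the control regions that carry the imprint. The positions are, for Phlda2, chr7:143502475-143502774 on the minus strand, for Nnat, chr2:157559828-157560127 on the plus strand, for Dlk1, chr12:109452573-109452872 on the plus strand, for Meg3, chr12:109540746-109541045 on the plus strand, and for Nap1l5, chr6:58907077-58907376 on the minus strand.
Phlda2: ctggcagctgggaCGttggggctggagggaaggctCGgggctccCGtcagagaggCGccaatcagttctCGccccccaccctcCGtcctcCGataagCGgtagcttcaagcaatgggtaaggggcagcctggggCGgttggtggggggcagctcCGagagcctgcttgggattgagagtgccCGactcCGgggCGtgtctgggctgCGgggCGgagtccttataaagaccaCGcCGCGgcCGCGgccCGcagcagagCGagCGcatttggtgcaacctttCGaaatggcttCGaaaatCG
Nnat: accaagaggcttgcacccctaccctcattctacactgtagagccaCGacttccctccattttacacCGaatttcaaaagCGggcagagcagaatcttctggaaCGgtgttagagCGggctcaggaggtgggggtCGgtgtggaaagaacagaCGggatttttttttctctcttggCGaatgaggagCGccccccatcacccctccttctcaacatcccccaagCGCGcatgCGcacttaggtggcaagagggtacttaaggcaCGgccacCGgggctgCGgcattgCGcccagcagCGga
Dlk1: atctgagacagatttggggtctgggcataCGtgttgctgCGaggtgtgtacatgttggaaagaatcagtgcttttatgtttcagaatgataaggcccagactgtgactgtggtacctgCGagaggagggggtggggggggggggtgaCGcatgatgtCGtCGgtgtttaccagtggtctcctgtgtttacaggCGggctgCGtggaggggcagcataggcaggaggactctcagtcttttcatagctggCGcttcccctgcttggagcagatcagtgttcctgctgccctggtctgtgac
Meg3: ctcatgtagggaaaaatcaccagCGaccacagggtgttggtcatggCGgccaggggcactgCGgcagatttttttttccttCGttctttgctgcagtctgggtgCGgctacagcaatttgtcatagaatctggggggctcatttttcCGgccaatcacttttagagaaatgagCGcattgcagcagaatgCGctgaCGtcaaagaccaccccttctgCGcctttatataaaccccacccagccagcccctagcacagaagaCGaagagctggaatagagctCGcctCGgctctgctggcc
Nap1l5: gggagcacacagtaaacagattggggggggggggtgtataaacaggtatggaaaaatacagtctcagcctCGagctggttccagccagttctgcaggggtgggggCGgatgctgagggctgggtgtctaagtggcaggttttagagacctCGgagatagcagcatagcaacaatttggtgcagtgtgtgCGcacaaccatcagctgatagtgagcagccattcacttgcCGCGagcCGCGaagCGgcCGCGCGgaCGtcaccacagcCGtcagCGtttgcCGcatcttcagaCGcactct
The Phlda2 window holds 26 CG, the Nnat and Nap1l5 windows 17 each, the Meg3 window 13 and the Dlk1 window 9, against a median of 7 over the 32851 promoters of the table (lower quartile 3, upper quartile 20). The Meg3 window was chosen because it holds the most CG for that gene. Another Meg3 promoter of the table, at chr12:109545148-109545447, holds 1 CG. Over the 53 promoters that the table holds for 36 of the 42 genes the median was 13. The letters TGCCGC or GCGGCA, the core recognised by ZFP57 on either strand, were in 11 of these 53 windows (20.8%), among them those of Nnat, Meg3 and Nap1l5, and in 11.6% of all windows. A match is a description of the letters and not a bound site.

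Each library was read on the scale log2 of RPKM + 1, and a gene is called higher or lower where the log2 ratio reached 1 in size, provided that at least 1 of the pair of groups held it at 1 RPKM or above. Fold changes are ratios of RPKM, with 95% intervals from the recovered reads (Clopper-Pearson) that cover counting error only. The recovered depth was highest with empty vector, at 111.1 M reads, and 101.5 M with G3SKM, 74.7 M with OSKM and 54.0 M with SKM, the shallowest. The delivered factors were checked at their own genes. Sox2 stood at 0.260 RPKM with empty vector, 187 with SKM, 110.5 with OSKM and 70.7 with G3SKM. Pou5f1, which encodes OCT4, was at 0 with empty vector, 0.297 with SKM, 3.69 with OSKM and 0.212 with G3SKM. Gata3 was at 0.0639, 0.0444, 0.0836 and 0.571 RPKM in that order of groups. OCT4 and GATA3 were thus each highest at their gene in the group that received them. Klf4 was at 6.26, 19.3, 13.9 and 8.55 RPKM, lowest in empty vector. Myc was at 16.0, 11.9, 10.5 and 6.31 RPKM, so it was highest in the group that received none and this gene does not check the delivery of c-MYC.

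The labelled cell type was checked against 9 fibroblast markers, whose summed RPKM on exon length was 2390 with empty vector, 1779 with SKM, 1062 with OSKM and 1179 with G3SKM. The sum of 8 macrophage markers was 142, 13.8, 5.39 and 10.7 in that order. Keratinocyte markers (6 genes) summed to 5.23, 95.6, 45.3 and 63.0, of which Krt14 alone gave 0.164, 84.3, 41.1 and 56.9, while Krt10 stayed between 0.956 and 1.11. Trp63 was at or under 0.145, and the 4 endothelial markers stayed between 0.152 and 0.410 in total. The 3 cultures with factors were below empty vector in all 8 macrophage markers. The fibroblast sum was carried by a few abundant genes. On exon length 1 of the 9 was called lower in SKM than in empty vector (7.15% of all genes). In OSKM 7 were lower (4.92%) and in G3SKM 6 (4.87%), while 1 was higher, Dcn in OSKM (8.92%). Every marker but Col1a1 and Dcn was highest in empty vector. Col1a1 was at 851 with empty vector and 903 with SKM, and Dcn was lowest in empty vector, at 1.71, 2.94, 8.01 and 3.62. The part of these markers in the results below was not tested.

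By the rule of size, 5 imprinted genes differed between SKM and empty vector, out of 21 that passed the filter. Phlda2, Nnat, Peg10 and Peg12 were higher, where 8.88% of all genes past the filter were higher, and Igf2 was lower, where 5.98% were. Between OSKM and SKM, 3 of 23 differed. Nap1l5 was higher, against a background of 2.55% of genes, and Dlk1 and Meg3 were lower, against 1.64%. Between G3SKM and SKM none of 21 passed the rule, where 4.43% of genes were higher and 1.1% lower. OSKM against empty vector, taken from columns of different tables, gave 8 of 23 genes. Phlda2, Nnat, Peg10 and Nap1l5 were higher (background 4.82%) and Igf2, Dlk1, H19 and Meg3 lower (background 4.16%). G3SKM against empty vector gave 5 of 22, with Phlda2 and Nnat higher (background 7.11%) and H19, Igf2 and Dlk1 lower (background 3.75%). These comparisons share their SKM or empty vector column.

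**Figure D1:**
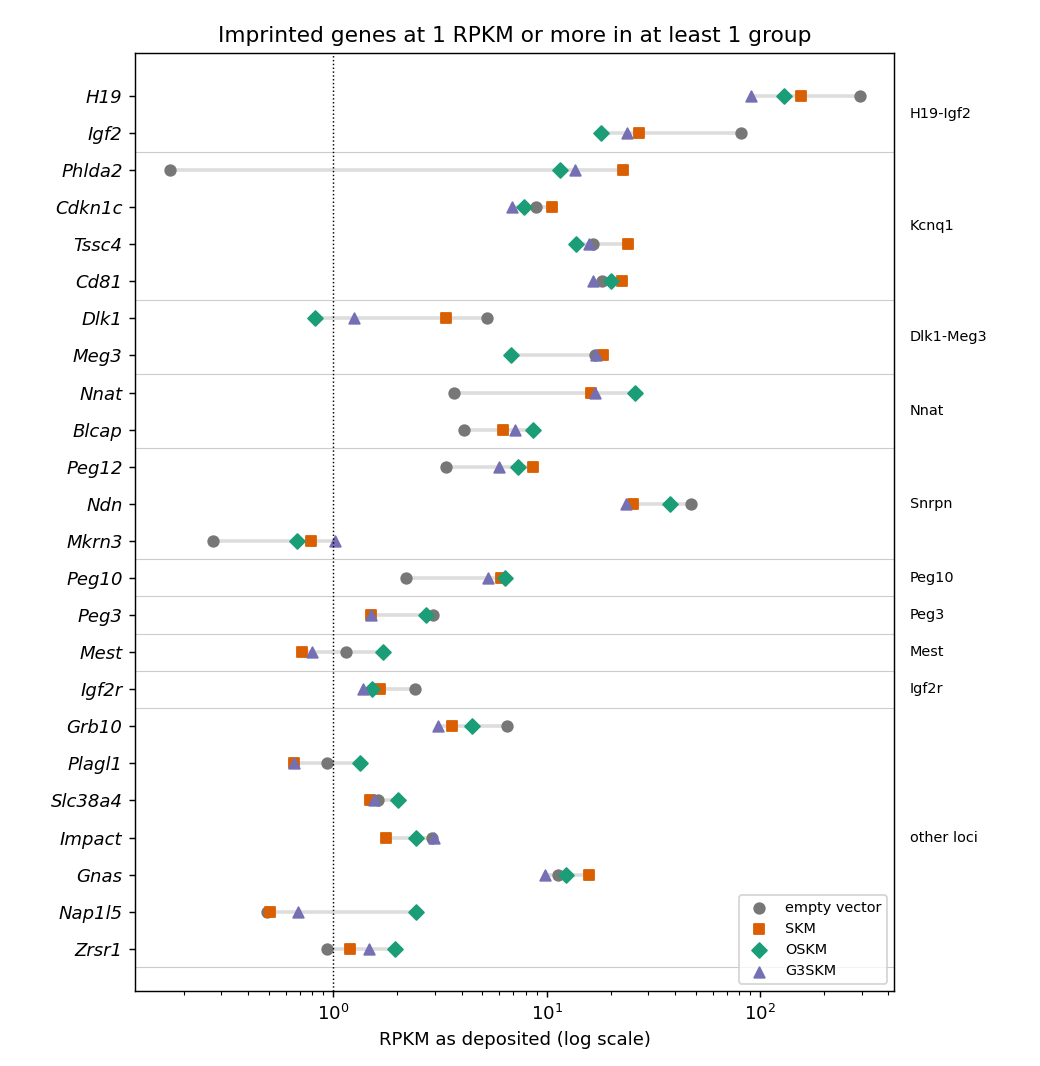
RPKM as deposited (log axis) of the 24 imprinted genes that reached 1 RPKM in some group, ordered by domain, with 1 point for each group and a grey line from the lowest to the highest. Phlda2 has the widest line, from 0.172 RPKM in empty vector to 22.8 in SKM, against 6.38-fold for Dlk1 and 7.03-fold for Nnat.

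**Figure D2:**
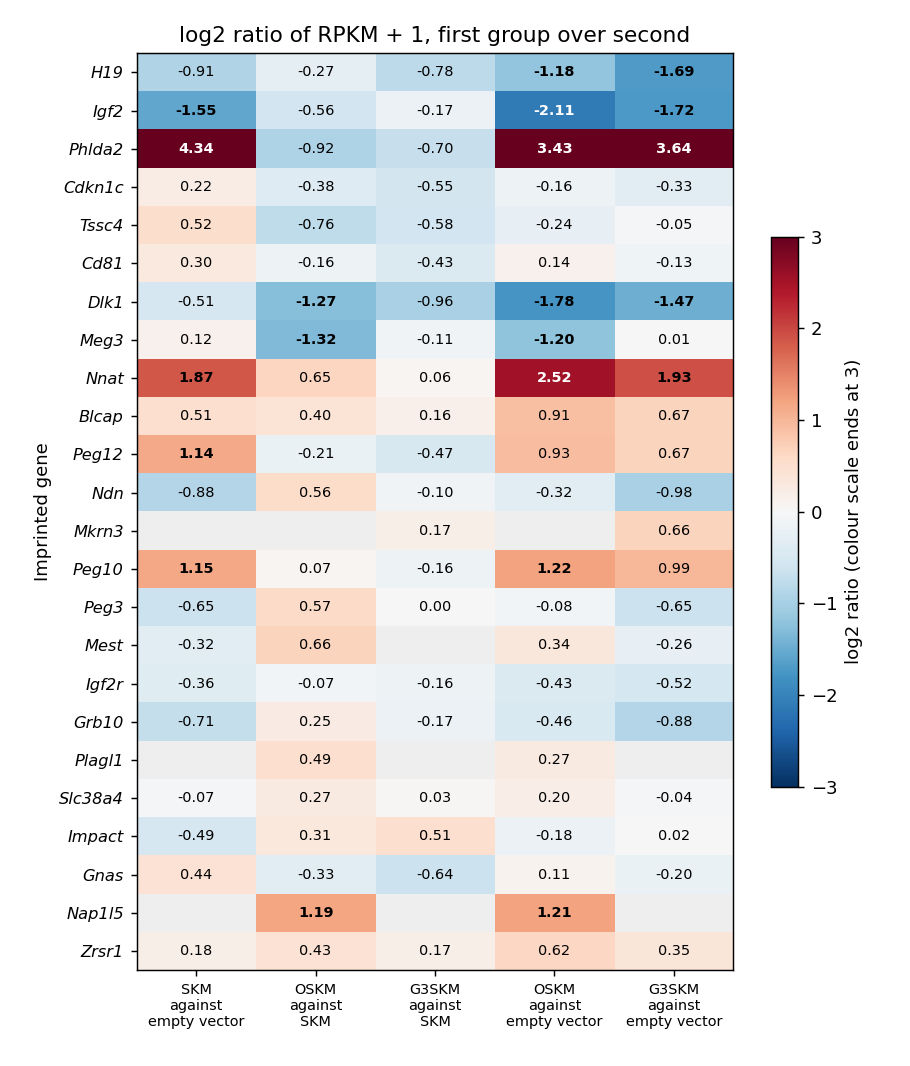
Log2 ratio of RPKM + 1 in each of the 5 comparisons (columns) for the same 24 genes (rows), with the value printed in each cell, bold where it is 1 or more in size and grey where neither group reached 1 RPKM. Igf2 was below 0 in all 5 columns, and Phlda2 was at 3.43 or more in the 3 columns against empty vector.

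The median log2 ratio of the members was 0.12 in SKM against empty vector, where that of all genes was 0.15. It was 0.07 in OSKM against SKM (all genes -0.01) and -0.16 in G3SKM against SKM (all genes near 0, at -0.0036). Against empty vector it was 0.11 in OSKM (all genes 0.18) and -0.09 in G3SKM (all genes 0.17). The empty vector library held the highest level of 13 of the 38 genes and the lowest level of 13 others, and OSKM held the highest level of 12.

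One property of the libraries touches every comparison with SKM. Across genes, the log2 ratio of SKM to empty vector rose with the GC content of the transcript, with a Spearman rho of 0.496 over 9455 genes, and it fell with GC in the comparisons with SKM as reference, with a rho of -0.708 for OSKM and -0.715 for G3SKM. The rho was 0.0597 for OSKM and -0.00225 for G3SKM against empty vector. These rho values run across genes, which are no replicates of a condition. Values with this trend removed are therefore given beside those results of the members that move with it. Genes of the other lists are given without such values, so the part of the trend in their calls with SKM was not tested.

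H19 is a long maternal RNA and Igf2 is a fetal growth factor gene of the paternal copy, and they are neighbours on chromosome 7. H19 stood at 294 RPKM with empty vector, 156 with SKM, 129 with OSKM and 90.4 with G3SKM. It was the most abundant of the 38 genes in every group, and its level was highest in empty vector and lowest in G3SKM. Igf2 stood at 81.2, 27.1, 17.997 and 23.9 RPKM in the same order. Igf2 was 2.996-fold lower in SKM than in empty vector (interval 2.96 to 3.04), 4.51-fold lower in OSKM (4.45 to 4.58) and 3.40-fold lower in G3SKM (3.36 to 3.43). H19 was 2.27-fold lower in OSKM (2.24 to 2.30) and 3.25-fold lower in G3SKM (3.20 to 3.30). In SKM it was 1.88-fold lower, a log2 ratio of -0.91 that did not reach the rule and that came to -1.19 with the GC trend removed. Igf2os, an antisense RNA that shares 7124 bases with Igf2, followed at 1.59, 0.484, 0.197 and 0.537 RPKM, and the reads of the 2 strands cannot be told apart.

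H19 is also the host of miR-675, whose mature sequences are printed from the RefSeq table because their row is read together with H19, with the seed (bases 2 to 8) in capitals.
mmu-miR-675-5p: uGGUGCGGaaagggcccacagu
mmu-miR-675-3p: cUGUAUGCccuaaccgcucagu
The precursor row Mir675 lies within H19 and stood at 548 RPKM with empty vector, 649 with SKM, 377 with OSKM and 201 with G3SKM. It held 5.92% of the H19 reads in empty vector and 13.2% in SKM. Unlike H19 itself, this row was not lower in SKM than in empty vector. Reads there can come from H19 or from the miRNA, which cannot be told apart.

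The partners of IGF2 were read from a list of 14 genes of the IGF axis, in RPKM in the order empty vector, SKM, OSKM and G3SKM. The binding protein gene Igfbp5 was lower with factors, at 8.88, 0.611, 1.33 and 0.655. Igfbp7 was at 7.49, 3.88, 2.17 and 2.25, and was lower by the rule in OSKM and G3SKM against empty vector. Igfbp6 was higher in SKM, at 4.55, 11.1, 3.996 and 6.80, and lower in OSKM than in SKM. Igfbp2 was at 1.77, 4.28, 1.27 and 3.44 and was lower in OSKM than in SKM, while Igfbp3, at 1.56, 2.49, 4.82 and 1.59, was higher in OSKM than in empty vector. The part of the GC trend in the calls of Igfbp6 and Igfbp2 was not tested. The list had 1 gene higher and 1 lower of 9 past the filter in SKM against empty vector, where 8.88% and 5.98% of all genes were. It had 0 and 2 of 9 in OSKM against SKM (2.55% and 1.64%), and 0 and 0 of 8 in G3SKM against SKM (4.43% and 1.1%). Against empty vector it had 1 higher and 2 lower of 9 in OSKM (4.82% and 4.16%), and 0 and 2 of 9 in G3SKM (7.11% and 3.75%).

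In the Kcnq1 domain of chromosome 7, 6 genes of the maternal copy were read. Phlda2, a pleckstrin homology domain protein that restrains placental growth, had the widest range of the 24 genes that reached 1 RPKM. It stood at 0.172 RPKM in empty vector, from 19 reads, and at 22.8 in SKM, 11.6 in OSKM and 13.6 in G3SKM, from 1227, 863 and 1379 reads. The empty vector library was low and the 3 libraries with factors were high. Phlda2 was 133-fold higher in SKM than in empty vector (interval 84.7 to 221), 67.5-fold in OSKM (43.0 to 113) and 79.4-fold in G3SKM (50.7 to 132). Its transcript is 56.5% GC, and with the GC trend removed its log2 ratio in SKM was 4.01 in place of 4.34. OSKM was 1.97-fold and G3SKM 1.67-fold below SKM, which did not reach the rule.

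None of the other 5 genes of that domain passed the rule as deposited. Cdkn1c, a cell cycle inhibitor, stood at 8.91 RPKM with empty vector, 10.6 with SKM, 7.88 with OSKM and 6.90 with G3SKM. Cd81, a tetraspanin, was at 18.1, 22.6, 20.04 and 16.4 RPKM. Cdkn1c and Cd81 were both lowest in G3SKM. Tssc4 was at 16.4, 24.1, 13.8 and 15.8 RPKM, and it lies wholly within Trpm5 on the opposite strand. The row of Trpm5, a taste cell channel, held between 101% and 103% as many reads as Tssc4 in every group, so reads were counted in both genes irrespective of strand. Slc22a18, a membrane transporter, was under 1 RPKM, at 0.0242, 0.108, 0.0575 and 0.123, and reached 0.365, 1.62, 0.866 and 1.85 on exon length, where its log2 ratio of G3SKM to empty vector was 1.06, past the rule. Ascl2, a transcription factor of placental progenitors, had 2 reads with empty vector, 8 with SKM, 75 with OSKM and 19 with G3SKM, which is at most 0.411 RPKM and below the filter. Its OSKM to SKM ratio was 6.78 (interval 3.27 to 16.3).

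Because Phlda2, Peg10 and Ascl2 are known from the placenta, a list of trophoblast markers was set beside them, of which 7 of 9 had a row. Their summed RPKM on exon length was 0.273 with empty vector, 21.04 with SKM, 19.4 with OSKM and 12.3 with G3SKM, with 3, 1, 0 and 0 of the 7 at 0. In the 3 groups with factors nearly all of this came from Hand1 and Esx1, and with empty vector most of it from Prl3d1, at 0.226 on exon length. Hand1 stood at 0.0131, 5.37, 4.25 and 3.17 RPKM, and Esx1 at 0, 2.87, 2.99 and 1.61. The lineage regulators Elf5, Eomes, Tfap2c and Gcm1 were at or under 0.135 RPKM in every group, and Prl3d1, a giant cell hormone gene, at or under 0.0326. The part of trophoblast RNA in these levels was not tested beyond these values.

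In the Dlk1 to Dio3 domain of chromosome 12, OSKM held the lowest level of both Dlk1 and Meg3. Dlk1, a paternal transmembrane protein of the Notch ligand family, stood at 5.24 RPKM with empty vector, 3.39 with SKM, 0.822 with OSKM and 1.25 with G3SKM. It was 4.13-fold lower in OSKM than in SKM (interval 3.77 to 4.52) and 6.38-fold lower than in empty vector (5.88 to 6.92). In G3SKM it was 2.71-fold below SKM (2.53 to 2.91), a log2 ratio of -0.96 just under the rule, which passed it on exon length at -1.14 and came to -0.82 with the GC trend removed and -0.88 with both, under the rule. Against empty vector Dlk1 was 4.19-fold lower in G3SKM (3.95 to 4.45). Meg3, the maternal long RNA of the domain, was at 16.9 RPKM with empty vector, 18.4 with SKM, 6.78 with OSKM and 17.0 with G3SKM. The OSKM library was low for Meg3 and the other 3 lay within a narrow range. Meg3 was 2.71-fold lower in OSKM than in SKM (2.66 to 2.77) and 2.49-fold lower than in empty vector (2.45 to 2.53). G3SKM and empty vector differed by a ratio of 1.01 (0.996 to 1.02).

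The other rows of the domain were lower in count. Rtl1, a paternal gene derived from a retrotransposon and needed in the placenta, had 506 reads with empty vector, 86 with SKM, 267 with OSKM and 345 with G3SKM, at most 0.409 RPKM. Dio3, an iodothyronine deiodinase at the far end, was at 2.44, 2.10, 0.896 and 0.971 RPKM in that order. Rian hosts small nucleolar RNAs, and 12 of their rows together held 6.24 reads per mega-read with empty vector, 2.65 with SKM, 2.64 with OSKM and 4.17 with G3SKM. One row, Gm24895, held between 87.9% and 94.4% of these reads. Of the 22 miRNA rows between Dlk1 and Dio3 most of the reads were over Mir1906-1, which lies within Meg3 and stood at 75.5, 42.9, 26.4 and 68.8 RPKM. Its mature sequence, and those of miR-770 from a second precursor within Meg3, are printed with the seed in capitals, and no seed among the 5 printed is shared.
mmu-miR-1906: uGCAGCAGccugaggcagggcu
mmu-miR-770-5p: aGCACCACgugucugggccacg
mmu-miR-770-3p: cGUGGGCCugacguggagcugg
Mir770 had 13, 2, 9 and 12 reads, too few to compare at this depth. For both precursors, reads of Meg3 and of the miRNA cannot be told apart.

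**Figure D3:**
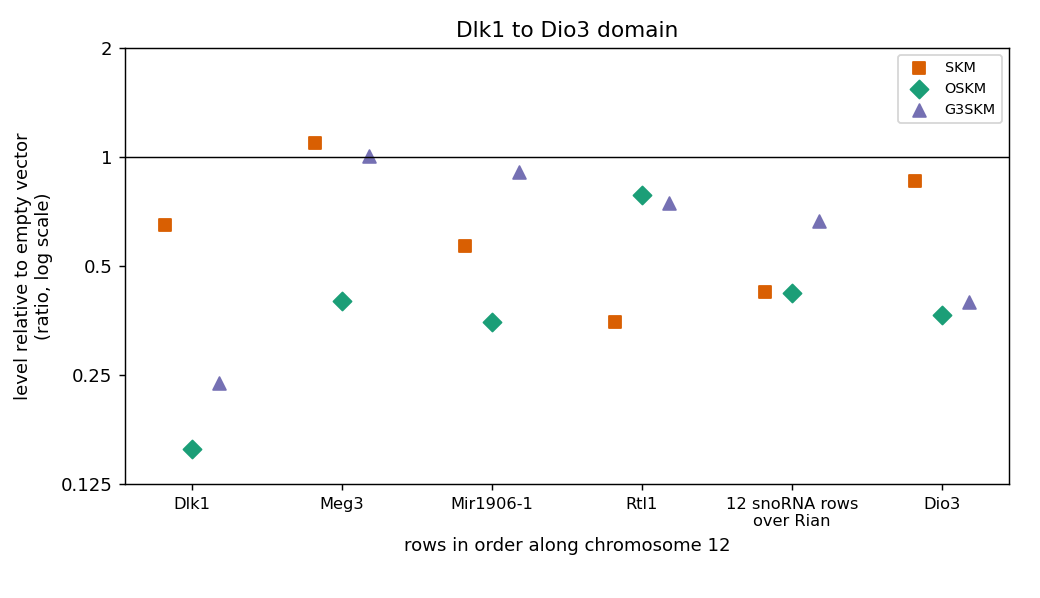
Level relative to empty vector (log axis, RPKM ratios, and reads per mega-read for the summed snoRNA rows) of 6 rows along the Dlk1 to Dio3 domain in SKM, OSKM and G3SKM. For Meg3 the OSKM point is low and the G3SKM point lies at 1.01, while for Dlk1 and Dio3 both are low.

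Nnat, a paternal membrane proteolipid gene of chromosome 2, lies wholly within an intron of Blcap, on the opposite strand. Nnat stood at 3.68 RPKM with empty vector, 16.1 with SKM, 25.8 with OSKM and 16.8 with G3SKM. It was lowest in empty vector and highest in OSKM. Nnat was 4.39-fold higher in SKM than in empty vector (interval 4.07 to 4.73), 7.03-fold in OSKM (6.56 to 7.53) and 4.57-fold in G3SKM (4.26 to 4.90). OSKM was 1.60-fold above SKM, a log2 ratio of 0.65 that came to 1.07 with the GC trend removed (transcript 58.6% GC). The values of Blcap, whose protein is named for bladder cancer, were 4.11, 6.27, 8.60 and 7.12 RPKM, with no call as deposited. On exon length Blcap passed the rule in OSKM against empty vector at 1.03, and with the GC trend removed as well it came to 0.95. Reads on Nnat came to 14.7% of the Blcap reads in empty vector and to 42.2%, 49.2% and 38.7% in SKM, OSKM and G3SKM. Blcap without the Nnat reads held 52.4, 54.1, 65.1 and 65.1 reads per mega-read, and Nnat held 8.99, 39.4, 63.2 and 41.1. Most of the difference in the Blcap row between SKM and empty vector was thus in reads over Nnat.

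**Figure D4:**
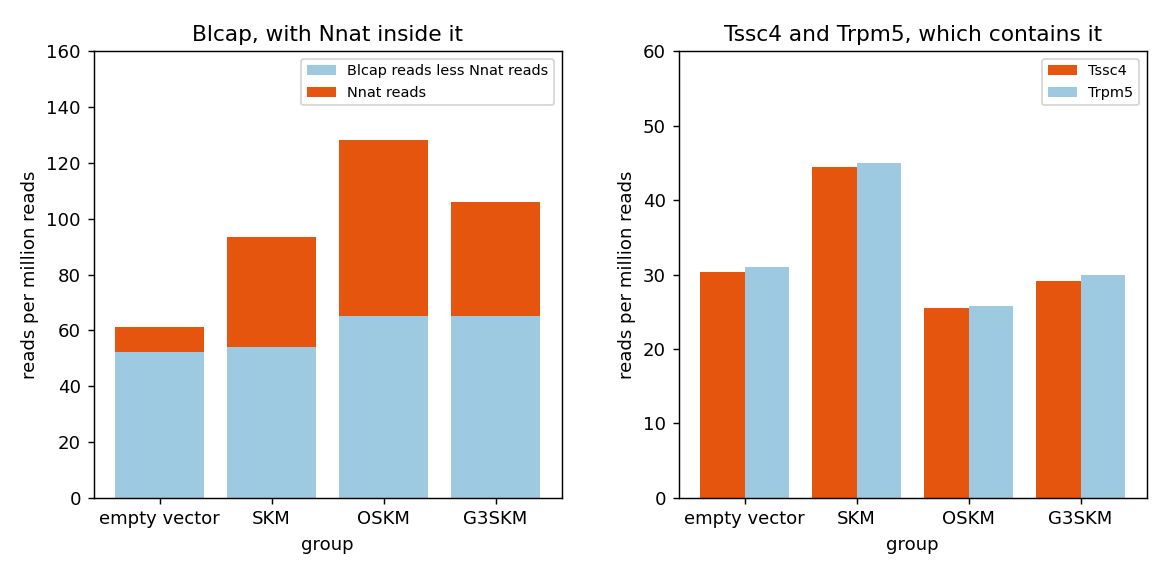
Reads per mega-read in the 4 groups for 2 pairs of nested genes. Left, Blcap reads split into those over Nnat and the rest, which lies between 52.4 and 65.1. Right, Tssc4 and the Trpm5 row that contains it, which are nearly equal in each group.

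The Snrpn domain of chromosome 7, whose human counterpart is lost in Prader-Willi syndrome, gave no common direction. Peg12, a paternal gene related to the GSK-3 binding protein Frat1, stood at 3.39 RPKM with empty vector, 8.67 with SKM, 7.36 with OSKM and 5.97 with G3SKM. It was 2.56-fold higher in SKM than in empty vector (interval 2.35 to 2.78), but its log2 ratio of 1.14 came to 0.81 with the GC trend removed (57.0% GC), under the rule. Ndn, the growth suppressor necdin, went the other way, at 47.8, 25.5, 38.1 and 23.7 RPKM. Its lowest log2 ratio was -0.98 in G3SKM against empty vector, just under the rule. Mkrn3, a ubiquitin ligase known for its part in the timing of puberty, was at 0.274, 0.788, 0.679 and 1.02 RPKM, lowest in empty vector. Magel2, a ubiquitin ligase regulator, had 14, 5, 51 and 4 reads, with OSKM the highest at 0.146 RPKM. Ube3a, a ubiquitin ligase imprinted in neurons, was at 0.671, 0.339, 0.771 and 0.515 RPKM and at 2.69, 1.36, 3.09 and 2.07 on exon length, without a call on either scale.

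In the Peg10 domain of chromosome 6, Peg10, a paternal gene derived from a retrotransposon and needed for the placenta, stood at 2.19 RPKM with empty vector, 6.09 with SKM, 6.42 with OSKM and 5.34 with G3SKM. All 3 libraries with factors were above empty vector. The ratio to empty vector was 2.78 in SKM (interval 2.66 to 2.91), 2.93 in OSKM (2.81 to 3.06) and 2.44 in G3SKM (2.34 to 2.54), and the last of these, at a log2 ratio of 0.99, was just under the rule and passed it on exon length at 1.12. Its neighbour Sgce, a sarcoglycan gene with which it shares a promoter region, was at 0.308, 0.230, 0.292 and 0.259 RPKM, a range of 1.33-fold. Ppp1r9a, which encodes the actin-binding protein neurabin, was at 0.0074, 0.0522, 0.0542 and 0.0791 RPKM. On exon length Ppp1r9a was at 0.134, 0.944, 0.980 and 1.43, and its ratio of G3SKM to empty vector was 10.7 (9.29 to 12.4), past the rule on that scale only, at a log2 ratio of 1.10. Asb4, an ankyrin repeat gene, was at 0.112, 0.0686, 0.0509 and 0.0776 RPKM and at 1.41, 0.866, 0.643 and 0.979 on exon length.

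The Peg3 and Mest domains were lowest in SKM or G3SKM and had no call on the deposited scale. Peg3, a paternal zinc finger gene of chromosome 7, stood at 2.93 RPKM with empty vector, 1.51 with SKM, 2.71 with OSKM and 1.51 with G3SKM. Zim1, a maternal zinc finger gene beside it, had 520, 92, 179 and 259 reads, at most 0.186 RPKM. Usp29, a paternal gene, was at 0.0414 RPKM in empty vector and 0.0103 in OSKM and at 0 in SKM and G3SKM, and its reads could not be fixed because 2 lengths gave whole numbers. Mest, a paternal hydrolase gene of chromosome 6, was at 1.15, 0.716, 1.71 and 0.798 RPKM. Copg2, a coat protein gene that shares 912 bases with Mest on the opposite strand, was at 0.239, 0.169, 0.373 and 0.263 RPKM and at 6.98, 4.91, 10.9 and 7.68 on exon length. Reads in the shared bases cannot be told apart, so the rows of Mest and Copg2 may hold some of the same reads. On exon length the OSKM to SKM log2 ratios were 1.10 for Mest and 1.01 for Copg2, so that 3 of 29 genes were higher there (background 3.99%) and 2 lower (1.95%). With the GC trend removed as well the values were 0.93 and 0.68, both under the rule. On exon length SKM against empty vector had 4 higher and 1 lower of 29 (backgrounds 11.9% and 7.15%), and G3SKM against SKM had 0 higher and 1 lower of 30 (4.07% and 1.03%). Against empty vector on that scale OSKM had 5 higher and 4 lower of 29 (8.92% and 4.92%), and G3SKM 5 higher and 4 lower of 31 (10.2% and 4.87%).

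Igf2r, the maternal receptor that clears IGF2, stood at 2.41 RPKM with empty vector, 1.65 with SKM, 1.52 with OSKM and 1.38 with G3SKM. Airn, the paternal long RNA that silences it, was at 0.441, 0.478, 0.536 and 0.735 RPKM. Igf2r was highest and Airn lowest in empty vector, while neither passed the rule. They share 28354 bases on opposite strands, and reads there cannot be told apart.

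Of the 9 remaining genes at separate loci, Nap1l5 alone passed the rule. Nap1l5, a paternal retrogene of the nucleosome assembly family on chromosome 6, stood at 0.490 RPKM with empty vector, 0.508 with SKM, 2.45 with OSKM and 0.682 with G3SKM, from 100, 51, 337 and 128 reads. OSKM was high and the other 3 were low. It was 4.81-fold higher in OSKM than in SKM (interval 3.55 to 6.55) and 4.995-fold higher than in empty vector (3.998 to 6.33). With the GC trend removed the log2 ratio to SKM was 0.86, under the rule, and that to empty vector was 1.26. Its host gene Herc3, on the opposite strand, was at 0.106, 0.127, 0.364 and 0.179 RPKM, also highest in OSKM, and its reads include those of Nap1l5. Herc3 held 9.38, 11.3, 32.4 and 15.9 reads per mega-read, and Nap1l5 held 0.903, 0.937, 4.51 and 1.26. Most of the Herc3 reads thus lay outside Nap1l5 in every group. Zrsr1, a paternal retrogene of a splicing factor within Commd1, was at 0.932, 1.19, 1.96 and 1.47 RPKM, while Commd1 was at 0.428, 0.322, 0.475 and 0.438.

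The other separate genes had no call on the deposited scale, and are given in RPKM in the order empty vector, SKM, OSKM and G3SKM. Grb10, an adaptor that restrains insulin and IGF receptor signalling, was at 6.51, 3.60, 4.47 and 3.09, highest in empty vector. Its log2 ratio of G3SKM to empty vector was -0.88, and -1.06 on exon length, past the rule there. Plagl1, a zinc finger gene, was at 0.937, 0.657, 1.33 and 0.655, and Slc38a4, an amino acid transporter, at 1.62, 1.496, 2.02 and 1.55. Both were highest in OSKM. Impact, a regulator of translation on chromosome 18, was at 2.90, 1.77, 2.44 and 2.96. Gnas, the stimulatory G protein alpha subunit, was at 11.4, 15.8, 12.3 and 9.80, and the antisense row Gm20721 within it held between 91.2% and 94.6% as many reads. Inpp5f, a phosphatase, was at 0.220, 0.271, 0.280 and 0.331, and at 2.25, 2.77, 2.86 and 3.39 on exon length. Rasgrf1, a neuronal exchange factor, had 21, 2, 6 and 11 reads.

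**Figure D5:**
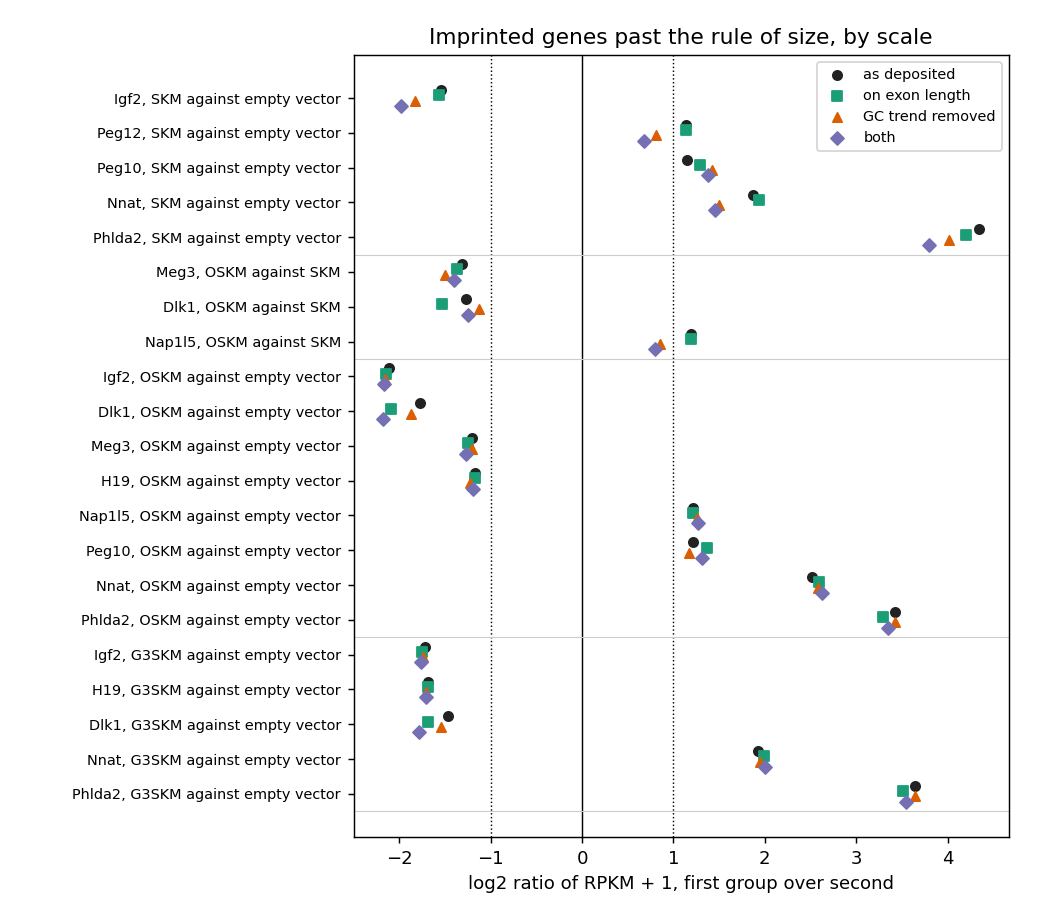
Log2 ratio of RPKM + 1 for every imprinted gene and comparison past the rule of size, as deposited, on exon length, with the GC trend removed, and with both. Dotted lines mark a log2 ratio of 1 in size. Peg12 in SKM against empty vector and Nap1l5 in OSKM against SKM fall inside the dotted lines once the GC trend is removed, and the other points stay outside.

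Grouped by the copy that is usually active in mouse, the medians of the maternal and paternal genes lay apart in several comparisons. In those with SKM the gap moved with the GC trend. Several of the genes are imprinted only in some tissues, such as Ube3a in brain, or by transcript, such as Gnas. The Blcap row, grouped as maternal, also holds reads over the paternal Nnat. These medians are therefore no measure of the activity of either copy in these cells. In OSKM against SKM the median log2 ratio was -0.30 over 10 maternal genes and 0.43 over 13 paternal genes, and in SKM against empty vector it was 0.26 over 10 and -0.32 over 11. The maternal genes past the filter had a median GC content of 54.0% and the paternal genes 46.8% in the first comparison. With the GC trend removed the medians were -0.04 and 0.17 in OSKM against SKM, and 0.10 and 0.08 in SKM against empty vector. In G3SKM against SKM they were -0.49 and near 0 (0.0012) as deposited, and -0.28 and -0.16 with the trend removed. In OSKM against empty vector they were -0.20 and 0.27 as deposited and -0.16 and 0.28 on exon length. They were -0.14 and 0.30 with the trend removed and -0.13 and 0.32 with both. The median of all genes on these 4 scales was 0.18, 0.23, 0.18 and 0.23. The paternal medians thus lay nearer to that of all genes than the maternal ones did. In G3SKM against empty vector the maternal and paternal medians were -0.16 and -0.01 as deposited, where that of all genes was 0.17. The paternal genes called in OSKM against empty vector went both ways, with Nnat, Peg10 and Nap1l5 higher and Igf2 and Dlk1 lower.

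A list of 25 genes that keep or erase imprints had 1 call on the deposited scale. Between SKM and empty vector 1 of 13 past the filter was higher (8.88% of all genes) and none lower (5.98%). In the other 4 comparisons none of 12 to 16 genes passed the rule, where the shares of all genes ran from 1.1% to 7.11% by direction. The one was Ehmt2, an H3K9 methyltransferase gene, at 7.48 RPKM with empty vector, 18.2 with SKM, 10.3 with OSKM and 10.9 with G3SKM. Zfp57 was at 2.24, 1.20, 1.39 and 1.70. Dnmt1, the maintenance methyltransferase gene, was at 3.05, 5.74, 5.23 and 3.69, and Trim28, the ZFP57 corepressor gene, at 31.4, 51.5, 47.0 and 34.7. These 3 had no call. On exon length more of the list passed the rule, with 21 genes past the filter. Against empty vector 3 were higher in SKM (11.9% of all genes), 4 in OSKM (8.92%) and 2 in G3SKM (10.2%). Against SKM 1 was higher in OSKM (3.99%) and none in G3SKM (4.07%). None was lower in any comparison, where 1.03% to 7.15% of all genes were. Apart from OSKM against empty vector, the counts of higher genes were near the shares of all genes. Dnmt3b, a de novo methyltransferase gene, stood on that scale at 0.402 RPKM with empty vector, 2.83 with SKM, 2.47 with OSKM and 2.72 with G3SKM. Of the genes of the TET enzymes, which oxidise methylated cytosine, Tet2 and Tet3 were called in some comparisons. Tet3, at 2.01, 6.27, 5.40 and 4.50, was higher in SKM and OSKM than in empty vector. Tet2, at 0.604, 1.35, 3.99 and 1.95, was higher in OSKM than in SKM and than in empty vector. Tet1 was at or under 0.520 in every group, below the filter. Kdm1b, an H3K4 demethylase gene needed to set maternal imprints in the egg, was at 1.63, 4.003, 4.62 and 5.51 and passed the rule against empty vector in OSKM and G3SKM.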

How the data were processed

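The deposited RPKM values are the authors' own, in 3 tables, 1 for SKM over empty vector and 1 each for OSKM and G3SKM over SKM. TopHat 1.3.0 and build mm9 are named in the submitters' processing notes, while the sources used here do not name the read counter or its handling of strand and of reads with several matches. Per the labels, each sample stands for 2 replicates and the cDNA was amplified. The deposited log2 ratios differed from those of the RPKM columns by at most 0.0017, so ratios were computed from the RPKM. A value of 0.001 and a gene not listed in a table were read as 0, and the SKM columns of the 3 tables were identical.

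Comparing low values between genes gave 1 step per column on the GENCODE M21 gene length, introns included, from which depth was recovered. Of genes with 1 to 1000 reads, 74.8% to 76.7% came out within 0.05 of a whole read, where 10% is expected by chance. For Phlda2, Ascl2, Magel2 and Mkrn3 a length between annotated ends that gave whole reads in all groups was used. Only 11 of the 38 matched genes were within 0.1 of whole reads in all 4 groups, so reads of the others are approximate. This does not touch the ratios, but the intervals were built from these reads and are approximate for those genes too. Levels are per gene length, so genes with long introns read low, and exon length is given as an alternative. Exon lengths and GC content are from M21 and 91.0% of the genes had an annotation.

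No replicate column exists, so no test was made and the rule of size, with a pseudocount of 1 RPKM and a filter at 1 RPKM, stands in for it. A difference may be technical. A GC trend was removed by subtracting the median of each of 20 GC bins. The recovery of depth and the rule were tested on simulated data. The genes named are all 42 members, and, from the other lists, those past the rule as deposited. The genes of imprint maintenance and the cell type markers named beside them were chosen after their values were seen. Members and lists were chosen with earlier results of these data known. Python 3.11.15, pandas 2.3.3, numpy 2.4.6, SciPy 1.17.1 and matplotlib 3.10.9 were used.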

Additional observations from a re-analysis of the deposited data

How the results depend on the processing

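No paired analysis was possible because each group has 1 column. The counts of genes past the rule and the medians of the imprinted genes were recomputed under 9 other settings, and the values below are those that moved by over 1.5 times (counts), by over 0.1 (medians) or changed sign, while the others did not.

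In SKM against empty vector, 2 genes were higher with a pseudocount of 5 RPKM, where Peg10 and Peg12 were lost. Centring on the median of all genes and trimmed mean scaling each gave 3 lower, with H19 and Ndn added, and removal of the GC trend, alone or with exon length, gave 2 lower, with H19 added. Peg12 was lost in these 4 settings. The median of the members, 0.12 as reported, was -0.027 centred, -0.047 with trimmed mean scaling, -0.11 on exon length, -0.006 without the filter and 0.30 with a filter at 5 RPKM.

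In OSKM against SKM, 2 genes were higher with a pseudocount of 0.1 RPKM, 3 on exon length, and 0 with a pseudocount of 5 or a filter at 5 RPKM. Lower genes came to 0 with that pseudocount and 1 with that filter, where the median turned to -0.27. In G3SKM against SKM 1 gene, Dlk1, was lower with a pseudocount of 0.1 or on exon length. The median there was -0.26 with the GC trend removed, -0.0014 on exon length, -0.43 with a filter at 5 RPKM and 0.012 without a filter.

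In OSKM against empty vector a pseudocount of 5 RPKM gave 2 higher and 2 lower, and all 8 calls were kept under 7 of the 9 settings, the other being the filter at 5 RPKM, which lost Nap1l5. The median turned to -0.072 centred, -0.10 with trimmed mean scaling and -0.16 with the filter at 5. In G3SKM against empty vector 5 genes were higher on exon length, with or without the GC trend removed, and 4 with a pseudocount of 0.1 RPKM. Lower genes came to 5 with that pseudocount, centred or with trimmed mean scaling, and the median to -0.27 centred and -0.30 with trimmed mean scaling. The cause of these moves was not tested, apart from the genes each setting lets in. Depth limits the genes with few reads, such as Ascl2, Magel2 and Rasgrf1.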

Other observations

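A second list of 54 imprinted genes, of which 47 had a row, was read by the same rule. In SKM against empty vector 2 of 17 past the filter were higher and 1 lower, shares near the 8.88% and 5.98% of all genes. Dhcr7, whose enzyme makes cholesterol, stood at 0.553 RPKM with empty vector, 2.86 with SKM, 2.80 with OSKM and 2.10 with G3SKM, and the tRNA synthetase gene Wars at 2.32, 5.93, 4.08 and 4.66. Tfpi2, a protease inhibitor gene, was at 1.496, 0.0768, 0.185 and 0.247 RPKM, and was lower in all 3 comparisons with empty vector. OSKM against SKM had no call among 13 (background 2.55% higher and 1.64% lower). Against empty vector OSKM had 2 higher, Dhcr7 and the creatine synthesis gene Gatm (0.467, 1.03, 1.98 and 1.25 RPKM), and 1 lower of 18 (background 4.82% and 4.16%), and G3SKM had 0 higher and 1 lower of 16 (7.11% and 3.75%). On exon length more genes passed, with 3 higher and 3 lower of 34 in SKM (11.9% and 7.15%), 6 and 3 of 37 in OSKM (8.92% and 4.92%) and 3 and 2 of 35 in G3SKM (10.2% and 4.87%), each against empty vector. Against SKM on that scale OSKM had 2 higher and 1 lower of 36 (3.99% and 1.95%). G3SKM had 4 higher, Xist and Tsix among them, and 0 lower of 33 (4.07% and 1.03%).

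In G3SKM against SKM 2 of 13 were higher, Xist and Tsix, and none lower (background 4.43% and 1.1%). Their log2 ratios were 1.22 and 1.02, and the part of the GC trend in them was not tested. Xist, the RNA of the inactive X, was at 6.05 RPKM with empty vector, 3.76 with SKM, 4.57 with OSKM and 10.1 with G3SKM. The antisense row Tsix held nearly the same number of reads in every library (15362 against 15391 in empty vector, and 23334 against 23380 in G3SKM), so the reads of the 2 strands cannot be told apart. The sources used here do not give the sexes of the embryos.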
